A study of Mus musculus with 17 samples.

Results

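The heterogeneous nuclear ribonucleoproteins (hnRNPs) examined here were 10 genes taken by their symbols, namely Hnrnpa1, Hnrnpa2b1, Hnrnpa3, Hnrnpab, Hnrnpd, Hnrnpdl, Hnrnph1, Hnrnpl, Hnrnpm and Hnrnpu. They are 10 of the 54456 gene symbols measured, and they hold 101 of the 142376 transcripts. All 10 genes passed the low-count filter, as did 80 of the 101 transcripts. RNA sequencing was done on tdTomato+ β cells sorted from islets of male mice on a C57BL/6 background, after the islets had been kept for 72 h in 2.8 mM (low) or 16.7 mM (high) glucose. Control mice carried RIP-Cre, a Cre recombinase driven by the rat insulin promoter, and a Cre-dependent tdTomato reporter (3 samples in low and 4 in high glucose, labelled WT). Pcbp2βKO mice carried the same transgene and reporter together with floxed alleles of Pcbp2, so that the deletion was limited to cells in which the insulin promoter had been active (5 samples in each glucose). Pcbp2 encodes a poly(C)-binding protein that is itself counted among the hnRNPs. Every group thus carried Cre and reporter, and the comparisons asked how glucose changed hnRNP transcripts in each genotype and how the knockout changed them in each glucose. The labels do not say that samples of a group came from separate animals, so p-values measure the spread between these samples.

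hnRNPs coat newly made RNA in the nucleus and help to decide which exons are spliced together, where the RNA is cleaved and polyadenylated, and how long it lasts. Several of them keep their own level in check by splicing some of their transcripts into forms that cells destroy through nonsense-mediated decay (NMD), the surveillance pathway that removes mRNAs whose stop codon lies well upstream of an exon junction, or by leaving an intron in the RNA. In β cells the family is best known through the splicing and the stability of insulin and secretory granule mRNAs, on which polypyrimidine-tract and poly(C)-binding proteins act. Transcript classes below (protein coding, NMD, retained intron, processed transcript) are those of the annotation the files carry. Decay itself was not measured.

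Estimated counts summed to between 4.74e+07 and 8.24e+07 per library. Pcbp2, the targeted gene, stood at 62.5 ± 11.4 CPM (counts scaled to the library size; SD, n = 3) and 40.4 ± 5.27 (n = 4) in control cells in low and high glucose, and at 17.4 ± 1.39 and 7.66 ± 1.68 (n = 5 each) in Pcbp2βKO cells. Ins1 and Ins2 together took 33.4% ± 2.28 of all TPM (transcript abundance scaled for length and depth) in control cells in low glucose and 58.6% ± 1.62 in high glucose, and 24.0% ± 5.29 and 60.6% ± 1.64 in Pcbp2βKO cells. This share bears on every level below, since a rise of insulin mRNA lowers the part of the library left to other genes. Along the first principal component, control replicate 4 and Pcbp2βKO replicates 4 and 5 in high glucose (10.2, 22.0 and 34.3) lay between the other high glucose libraries (93.7 to 102) and the low glucose libraries (-109 to -43.7). Several results that changed without these 3 samples are given below with the values obtained without them. All 8 β cell markers listed were detected, while the summed level of endothelial and of stellate markers did not exceed 1.14 CPM in any library. The summed α cell markers, of which 3 of 4 passed the filter and Gcg made up nearly all, ranged over 625 to 2543 CPM in control cells in low glucose, 260 to 1449 in high glucose, 1452 to 9161 in Pcbp2βKO cells in low glucose and 172 to 1301 in high glucose. The corresponding ranges for 3 macrophage markers were 7.26 to 13.8, 1.57 to 5.74, 6.01 to 21.9 and 1.06 to 3.20 CPM. Sst and Hhex, the δ cell markers, summed to 78.2 to 276, 102 to 231, 112 to 945 and 73.1 to 316 CPM, and Ppy, the PP cell hormone, to 797 to 835, 224 to 631, 992 to 5111 and 290 to 1142 CPM. Of 6 proliferation genes, none was called higher in high glucose in control cells (edgeR; 7.16% of all genes were) and 6 were in Pcbp2βKO cells (13.5%). Their median log2 change was 2.73 in control cells and 4.16 in Pcbp2βKO cells. None was called between genotypes in high glucose or for the difference between the glucose responses. The corresponding summed ranges were 3.99 to 5.92, 8.19 to 62.2, 4.07 to 12.8 and 2.19 to 271 CPM. Acinar markers, of which 1 of 4 passed the filter, and ductal markers did not exceed 23.6 CPM. The part of these other cells in the results was not tested, and in bulk samples fewer cells of a type and less RNA per cell cannot be told apart.

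The clearest results concerned transcripts that differ downstream of the stop codon. Hnrnpa1 (chr15:103148339-103155125, plus strand, GRCm39) encodes the splicing repressor and RNA shuttle hnRNP A1. Its coding transcript Hnrnpa1-202 and its NMD transcript Hnrnpa1-203 share a coding sequence of 960 nucleotides (nt) and part after the stop codon. Hnrnpa1-202 ends with an exon of 700 nt joined at 14 nt after the stop codon, its only junction there. Hnrnpa1-203 skips to exons of 76 and 148 nt further downstream, which places its last junction 90 nt after the stop codon. The windows below (GRCm39 reference genome) show the shared stop codon in capitals and the AG of the 3′ splice site each transcript uses next, since this choice sets the class of the transcript.
Hnrnpa1 stop codon and 5′ splice site, chr15:103152434-103152463: ggttcTAAttacatacagccaggtaagtgc
Hnrnpa1-202 next exon, chr15:103152663-103152692: tattccatattgttcaacAGgaaacaaagc
Hnrnpa1-203 next exon, chr15:103154753-103154782: aatgttgtttgcttttctAGgaaggaatct

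Hnrnpdl (chr5:100179317-100187792, minus strand), which encodes the A1- and D-related protein hnRNP D-like, also has a coding and an NMD transcript that part after a shared stop codon. Here the NMD transcript adds an exon and does not replace the last one. Hnrnpdl-202 (coding) and Hnrnpdl-201 (NMD) share a coding sequence of 1260 nt. Hnrnpdl-202 has 1 junction at 21 nt after the stop codon. Hnrnpdl-201 includes an additional exon of 105 nt, so that its last junction lies 126 nt after the stop codon. The windows mark the stop codon, the AG of each 3′ splice site and, for the additional exon, the GT of its 5′ splice site in capitals.
Hnrnpdl stop codon and 5′ splice site, chr5:100183957-100183986: TAAaggaggacgctgggagagcaggtgtgt
Hnrnpdl-202 next exon, chr5:100182834-100182863: gtgtttcgtttttgttttAGgaggtgtaaa
Hnrnpdl-201 additional exon, start, chr5:100183589-100183618: accttgtttgtacccgccAGcgggaacttc
Hnrnpdl-201 additional exon, end, chr5:100183479-100183508: aaacgctgtcctgtgGTatggtctcttcca

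**Figure D1:**
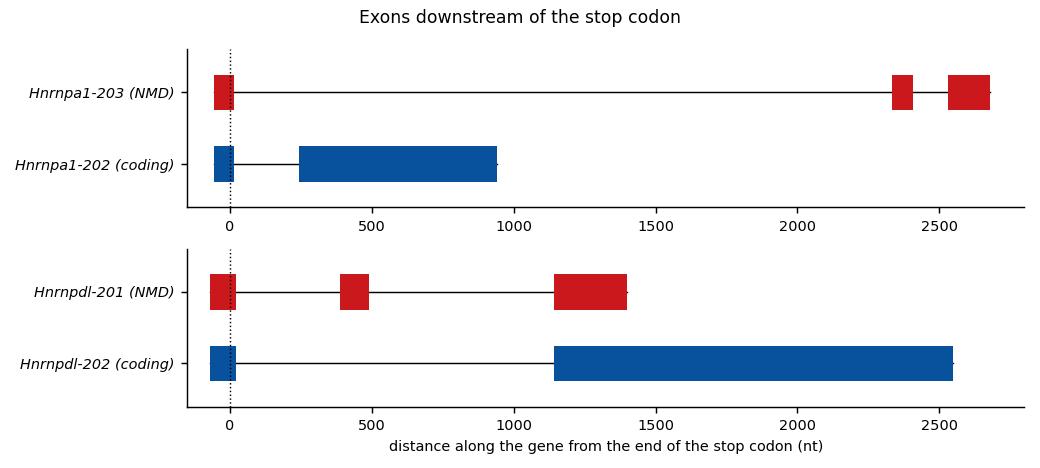
Exons downstream of the stop codon in the coding and NMD transcripts of Hnrnpa1 and Hnrnpdl, drawn to scale as nt from the stop codon. In Hnrnpa1-203 exons of 76 and 148 nt replace the 700-nt exon of Hnrnpa1-202, and in Hnrnpdl-201 an exon of 105 nt is added.

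High glucose lowered the share of Hnrnpa1 RNA carried by NMD transcripts, and it did so in both genotypes. In control cells NMD transcripts made up 59.8%, 57.6% and 39.8% of the TPM of Hnrnpa1 in the 3 low glucose samples, and 14.1%, 14.5%, 12.4% and 23.9% in the 4 high glucose samples. In Pcbp2βKO cells the shares were 54.0%, 53.8%, 57.3%, 52.2% and 44.9% in low glucose and 15.97%, 12.7%, 19.6%, 21.4% and 14.9% in high glucose. The groups of low and high glucose did not overlap in either genotype, and control replicate 4, one of the samples between the clusters, had the highest share among the high glucose controls. On the log2 ratio of non-coding to coding TPM, the change was -2.50 ± 0.32 (SE; limma, adjusted p = 0.000263) in control cells and -2.42 ± 0.26 (limma, adjusted p = 2.68e-05) in Pcbp2βKO cells. The mean difference was -36.1 and -35.5 percentage points.

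At the level of single transcripts the shift ran in opposite directions. Hnrnpa1-203 had TPM values of 13.1, 11.2 and 7.11 in control cells in low glucose and 1.75, 2.00, 2.07 and 3.56 in high glucose, and means of 10.5 ± 1.73 and 2.64 ± 0.472 (n = 5 each) in Pcbp2βKO cells. Hnrnpa1-202 had means of 8.18 ± 1.24 (n = 3) and 10.7 ± 2.10 (n = 4) TPM in control cells, and of 8.09 ± 1.65 and 11.6 ± 1.95 (n = 5 each) in Pcbp2βKO cells. The 2 transcripts were thus close in level in low glucose and far apart in high glucose. In the edgeR fit of transcript counts Hnrnpa1-203 fell by 1.41 on the log2 scale in control cells (adjusted p = 0.00703) and by 0.96 in Pcbp2βKO cells (adjusted p = 0.00661), and Hnrnpa1-202 rose by 1.19 (adjusted p = 0.0121) and 1.56 (adjusted p = 0.000124). These opposite calls were also made with total counts in place of scaling factors, where Hnrnpa1-203 changed by -1.77 and -1.45 and Hnrnpa1-202 by 0.78 and 1.06. The control call of Hnrnpa1-202 was lost without low glucose control replicate 1 or 2, and that of Hnrnpa1-203 was kept whichever sample was left out.

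Hnrnpdl behaved alike. Its share outside protein-coding transcripts was 34.7%, 41.9% and 38.6% in control cells in low glucose and 18.5%, 12.9%, 14.9% and 18.6% in high glucose. In Pcbp2βKO cells it was 32.8%, 44.2%, 43.3%, 36.2% and 38.4% against 15.4%, 16.7%, 19.98%, 19.96% and 12.8%. No sample in high glucose reached the lowest value in low glucose. The log2 ratio changed by -1.67 ± 0.24 (limma, adjusted p = 0.000942) and -1.63 ± 0.20 (limma, adjusted p = 9.5e-05). NMD transcripts took the larger part, 25.5% ± 5.31 (n = 3) and 11.8% ± 3.84 (n = 4) in control cells and 27.9% ± 3.68 and 10.9% ± 0.684 (n = 5 each) in Pcbp2βKO cells, and retained-intron transcripts 8.15% ± 2.40, 3.49% ± 1.17, 7.36% ± 1.74 and 3.82% ± 1.15 in the same order. Hnrnpdl-201, the transcript with the additional exon, went from 4.79 ± 1.06 to 1.68 ± 0.415 TPM in control cells and from 5.33 ± 0.836 to 1.91 ± 0.381 TPM in Pcbp2βKO cells.

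**Figure D2:**
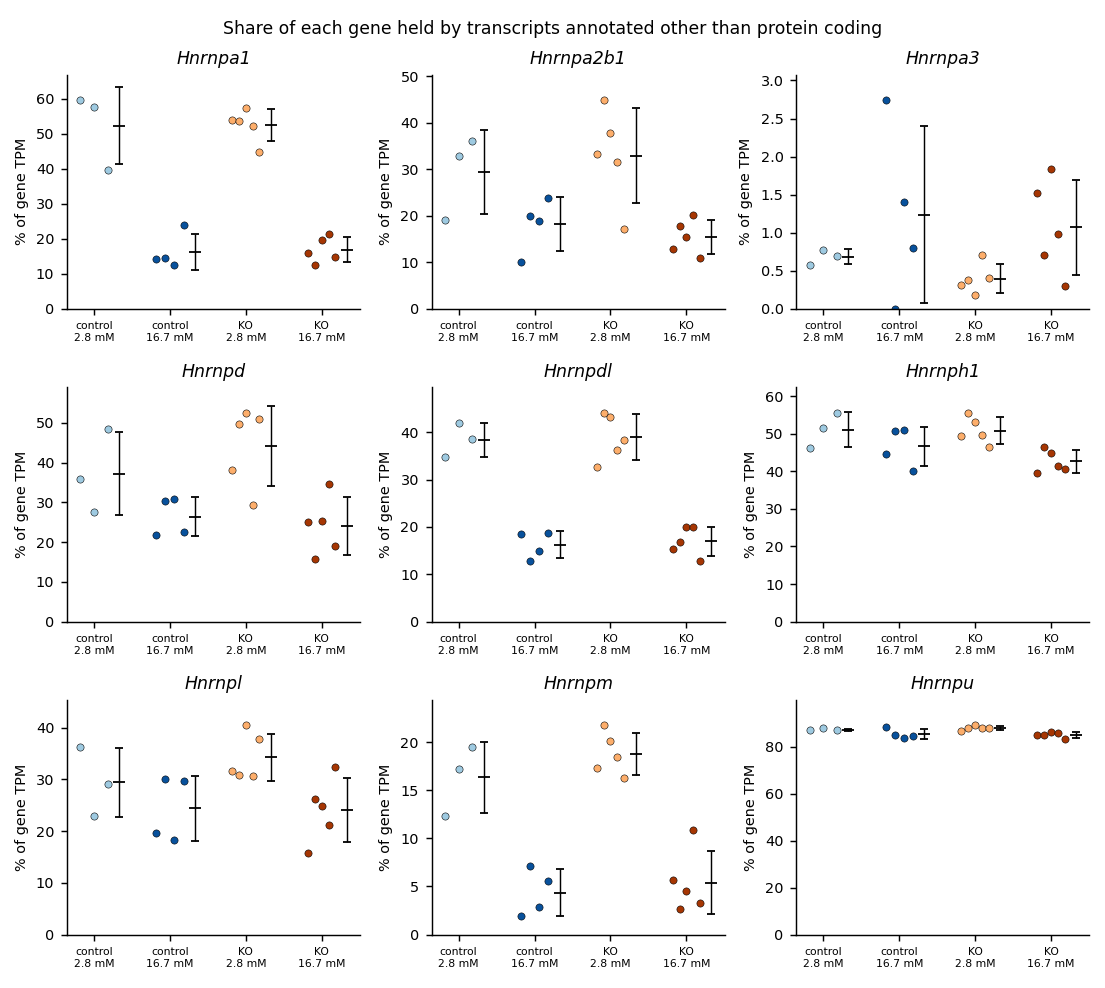
Percent of each gene's TPM in transcripts other than protein coding, 1 point per sample with the group mean and SD as bars, for the 9 hnRNP genes that have such transcripts. For Hnrnpa1, Hnrnpdl and Hnrnpm the low and high glucose samples do not overlap in either genotype, while the group means of Hnrnpu lie between 85.2% and 88.0%.

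Hnrnpm (chr17:33865207-33905834, minus strand), which encodes a splicing regulator that binds GU-rich RNA, lost retained-intron transcripts in high glucose. Its non-coding share was 12.3%, 17.2% and 19.5% in control cells in low glucose and 1.95%, 7.15%, 2.82% and 5.53% in high glucose. In Pcbp2βKO cells it was 17.3%, 21.7%, 20.1%, 18.5% and 16.3% against 5.69%, 2.64%, 4.51%, 10.8% and 3.31%. The groups did not overlap, and Pcbp2βKO replicate 4, another of the samples between the clusters, was the highest of its group. The log2 ratio changed by -2.12 ± 0.43 in control cells (limma, adjusted p = 0.00959) and by -2.09 ± 0.36 in Pcbp2βKO cells (limma, adjusted p = 0.000884). The control call was lost without low glucose control replicate 2 (-2.06, limma, adjusted p = 0.0601). Retained-intron transcripts of Hnrnpm alone made up 11.4% ± 1.71 (n = 3) and 3.04% ± 1.26 (n = 4) in control cells and 13.8% ± 5.12 and 2.65% ± 0.594 (n = 5 each) in Pcbp2βKO cells. Hnrnpm-213, a short transcript of 591 nt in that class, went from 2.41 ± 0.810 to 0.228 ± 0.198 TPM in control cells and from 2.11 ± 1.14 to 0.203 ± 0.219 TPM in Pcbp2βKO cells. In the edgeR fit of transcript counts, Hnrnpm-213 was called in Pcbp2βKO cells and not in control cells. The annotation gives it an exon that ends with an exon of Hnrnpm-201 but begins 115 nt upstream, within the preceding intron.

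Hnrnpa2b1 (chr6:51435248-51448049, minus strand) encodes hnRNP A2 and B1, which sort RNAs and regulate splicing, and it was the member with the highest TPM. Its non-coding share was 19.2%, 32.9% and 36.1% in control cells in low glucose and 10.1%, 20.1%, 18.8% and 23.8% in high glucose. In Pcbp2βKO cells it was 33.2%, 45.0%, 37.8%, 31.6% and 17.2% against 12.8%, 17.7%, 15.5%, 20.1% and 10.9%. Both pairs of groups overlapped, through low glucose control replicate 1 and low glucose Pcbp2βKO replicate 5. The change passed the test in Pcbp2βKO cells (log2 ratio -1.41 ± 0.36, limma, adjusted p = 0.0121) and missed it in control cells (-0.92 ± 0.43, limma, adjusted p = 0.221), and the difference between the genotypes was not called. Nearly all of this share was retained intron (30.9% ± 10.04 and 12.6% ± 3.41 in Pcbp2βKO cells in low and high glucose), and the NMD share of Hnrnpa2b1 was 2.07% ± 0.392 and 2.81% ± 0.493.

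**Figure D3:**
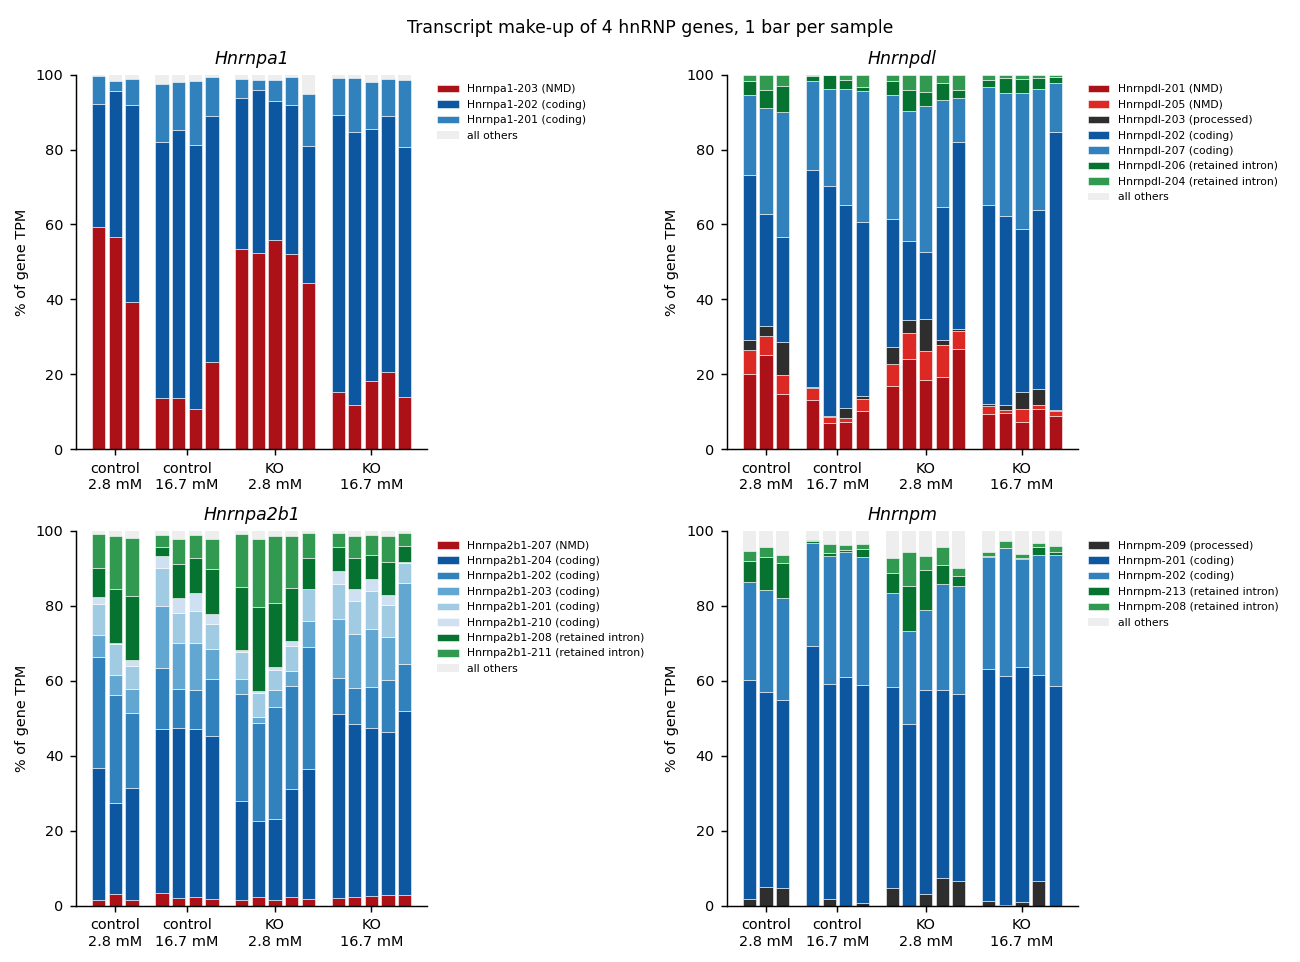
Stacked bars of the percent of gene TPM by transcript for Hnrnpa1, Hnrnpdl, Hnrnpa2b1 and Hnrnpm in each of the 17 samples. For Hnrnpa1 the NMD transcript Hnrnpa1-203 averages 51.7% of the gene in control cells in low glucose and 15.4% in high glucose.

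Counted over the members, the non-coding share fell in 3 of the 7 genes that could be tested in control cells (limma; 2.5% of the 4715 genes tested fell) and in 4 of 7 in Pcbp2βKO cells (9.44% of all), and it rose in none of the 7. The median change of the members on the log2 ratio was -0.92 and -1.41, against 0.04 and -0.01 over all genes tested. For NMD transcripts alone 2 of 5 members fell in control cells (8.74% of 1247 genes) and 3 of 5 in Pcbp2βKO cells (19.9%). The 3 were Hnrnpa1, Hnrnpdl and Hnrnpl, which encodes a splicing regulator that binds CA repeats. For retained-intron transcripts alone 2 of 5 members fell in control cells (1.42% of 3166 genes), namely Hnrnpdl and Hnrnpm, and 3 of 5 fell in Pcbp2βKO cells (5.97%), with Hnrnpa2b1 as the third. Over all genes other than insulin and Iapp, NMD transcripts held 2.03% ± 0.117 and 1.66% ± 0.172 of TPM in control cells and 1.94% ± 0.139 and 1.58% ± 0.108 in Pcbp2βKO cells, whereas the retained-intron share was 3.24% ± 0.304, 3.20% ± 0.248, 3.15% ± 0.339 and 3.11% ± 0.225. Hnrnpab has coding transcripts only, and Hnrnpa3 and Hnrnpd did not reach the TPM minimum of the fit.

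The full non-coding shares of the other members were not called in the main limma fit or could not be fitted. The NMD share of Hnrnpl, taken alone, was called in Pcbp2βKO cells, as given above. Hnrnpu, which encodes the nuclear scaffold protein hnRNP U, had most of its TPM outside protein-coding transcripts in every group (87.4%, 85.5%, 88.0% and 85.2% in control low, control high, Pcbp2βKO low and Pcbp2βKO high). Its NMD transcript Hnrnpu-206, with 3 junctions after the stop codon and the last at 183 nt, held 53.5% ± 9.03, 52.5% ± 10.1, 49.6% ± 3.00 and 51.1% ± 3.25 of the gene. Hnrnph1, which encodes a G-tract-binding splicing regulator, averaged 51.0%, 46.6%, 50.8% and 42.6%, all in processed transcripts. Hnrnpl averaged 29.4%, 24.4%, 34.2% and 24.1%. Hnrnpd, whose protein (AUF1) binds AU-rich elements, averaged 37.3%, 26.4%, 44.2% and 24.0% at a level of only 1.96 to 4.40 TPM. In exact permutation tests on the shares (two-sided, 48 such tests run over all members and contrasts and p not adjusted), the difference between high and low glucose in Pcbp2βKO cells was -20.2 percentage points for Hnrnpd (p = 0.0159), -10.2 for Hnrnpl (p = 0.0317), -8.23 for Hnrnph1 (p = 0.0159) and -2.80 for Hnrnpu (p = 0.00794, the smallest that 5 against 5 samples can give). Only for Hnrnpu among these 4 did the groups not overlap. The same tests in control cells gave p = 0.114 for Hnrnpd, 0.371 for Hnrnpl, 0.343 for Hnrnph1 and 0.2 for Hnrnpu, where 0.0286 is the smallest an exact test of 3 against 4 samples allows.

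Summed over transcripts, the members with the largest rises in high glucose were Hnrnpa2b1, Hnrnpl and Hnrnpm. Hnrnpa2b1 had 214, 194 and 280 CPM in control cells in low glucose and 369, 456, 486 and 371 in high glucose, and 196, 185, 210, 178 and 239 against 565, 515, 524, 395 and 534 in Pcbp2βKO cells. Low and high glucose did not overlap. The log2 change was 0.87 ± 0.17 (edgeR, adjusted p = 0.0026) in control cells and 1.33 ± 0.14 (edgeR, adjusted p = 4.99e-06) in Pcbp2βKO cells. Hnrnpl had 17.98, 20.3 and 15.5 CPM against 42.4, 30.4, 38.2 and 19.5 in control cells, where control replicate 4 in high glucose fell among the low glucose values, and 20.2, 18.6, 15.6, 16.3 and 16.03 against 36.3, 35.4, 39.2, 25.1 and 32.8 in Pcbp2βKO cells. Its log2 change was 0.86 ± 0.22 (edgeR, adjusted p = 0.0119) and 0.96 ± 0.18 (edgeR, adjusted p = 0.000547). Hnrnpm had 67.6, 56.3 and 68.3 CPM against 124, 103, 104 and 83.1 in control cells, and 51.7, 44.6, 54.6, 53.0 and 75.3 against 117, 102, 124, 89.1 and 111 in Pcbp2βKO cells, with no overlap. Its log2 change was 0.69 ± 0.17 (edgeR, adjusted p = 0.0123) and 0.96 ± 0.14 (edgeR, adjusted p = 9.35e-05). These CPM were scaled by trimmed mean of M values (TMM) factors, which set the bulk of genes to no change.

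In edgeR (fold over 1.5 and adjusted p under 0.05) 3 of the 10 members rose in control cells (7.16% of the 22733 genes tested) and 5 of 10 in Pcbp2βKO cells (13.5%), and none fell. The other 2 in Pcbp2βKO cells were Hnrnpa1 (log2 change 0.89 ± 0.20, edgeR, adjusted p = 0.00232) and Hnrnpdl (0.88 ± 0.12, edgeR, adjusted p = 5.7e-05). In control cells Hnrnpdl passed the adjusted p but not the fold (0.54 ± 0.15, edgeR, adjusted p = 0.0212), as Hnrnph1 did in Pcbp2βKO cells (0.44 ± 0.14, edgeR, adjusted p = 0.0263). Hnrnpa1 missed the threshold in control cells (0.63 ± 0.24, edgeR, adjusted p = 0.0848) and passed it with the replicate number as a block (0.75, edgeR, adjusted p = 0.0483), without high glucose control replicate 4 (0.77, edgeR, adjusted p = 0.0316) and without the 3 samples between the clusters (0.73, edgeR, adjusted p = 0.0259). The control count was 5 without high glucose control replicate 4. Hnrnpl was lost in control cells without low glucose replicate 3 (edgeR, adjusted p = 0.0529) and Hnrnpm without low glucose replicate 2 (edgeR, adjusted p = 0.0799). With protein-coding transcripts alone 5 members rose in control cells, Hnrnpa1 (1.32, edgeR, adjusted p = 0.00583) and Hnrnpdl (0.89, edgeR, adjusted p = 0.00283) being added. The share of all genes that rose in that fit is not given here.

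The direction of these gene-level changes depended on the scale. With TMM the median log2 change of all genes was 0.04 in control cells and 0.01 in Pcbp2βKO cells. With total counts and no scaling factors it was -0.35 and -0.47, and on log2(TPM + 0.1), in which insulin takes up much of the sum, -0.55 and -0.71. The median over the 10 members was 0.43 and 0.66 with TMM, 0.05 and 0.19 with total counts and -0.48 and -0.49 on the TPM scale. With total counts no member was called in control cells, and 2 were called in Pcbp2βKO cells, Hnrnpa2b1 higher (0.84) and Hnrnpu lower (-0.74), while Hnrnpdl, Hnrnpl and Hnrnpm passed the adjusted p there (edgeR, adjusted p = 0.032, 0.0142 and 0.00957) but not the fold. On the TPM scale limma called 3 members lower in control cells (Hnrnpa3, Hnrnpd and Hnrnpu) and 4 lower in Pcbp2βKO cells (these 3 and Hnrnph1), with none higher. The shares of all genes called with total counts and on the TPM scale are not given here, and the median gene also fell on both. Relative to the median on the TPM scale, Hnrnpa3 stood at -0.05 and -0.03 in control and Pcbp2βKO cells, and Hnrnph1 at 0.03 in Pcbp2βKO cells. Hnrnpd stood lower, at -0.58 and -0.32, as did Hnrnpu, at -0.50 and -0.69. Relative to the median of all genes on the TMM, total count and TPM scales, Hnrnpa2b1 stood at 0.84, 0.82 and 0.59 in control cells and at 1.32, 1.31 and 0.91 in Pcbp2βKO cells. Hnrnpl stood at 0.82, 0.79 and 0.46 in control cells, and Hnrnpu at -0.23, -0.21 and -0.50. The shares within a gene do not depend on this scaling.

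**Figure D4:**
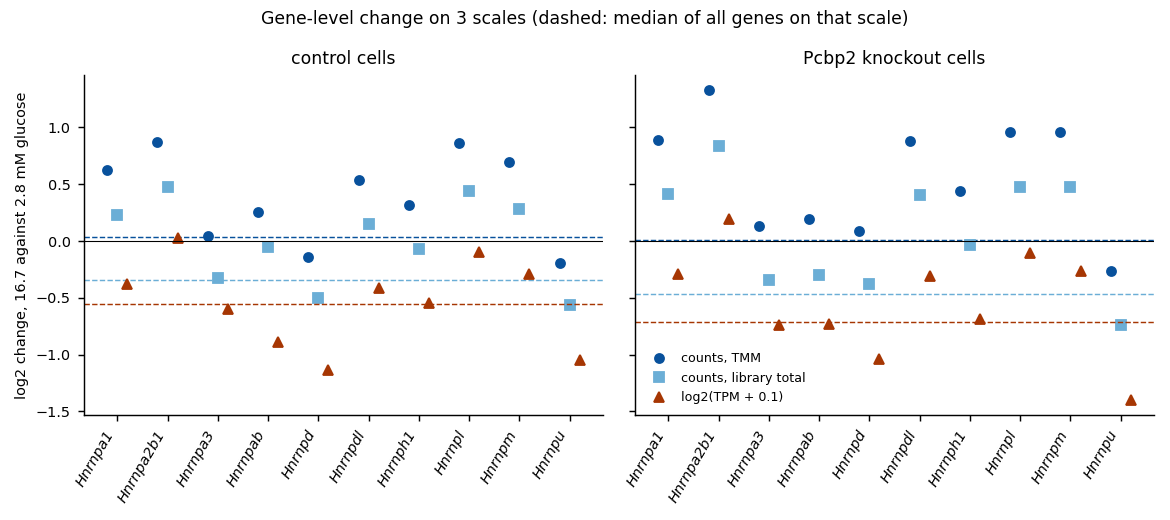
Log2 change in high against low glucose of the 10 hnRNP genes in control and Pcbp2βKO cells on 3 scales (TMM-scaled counts, total counts, log2(TPM + 0.1)), with the median of all genes as a dashed line per scale. Hnrnpa2b1 lies above the median on all 3 scales, at 1.33 on the TMM scale in Pcbp2βKO cells, and Hnrnpu lies below it.

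Per length, the order of the members by mean TPM over the 17 samples was Hnrnpa2b1 (167), Hnrnpu (93.1), Hnrnpab (32.8), Hnrnph1 (30.4), Hnrnpm (27.4), Hnrnpdl (22.2), Hnrnpa3 (20.5), Hnrnpa1 (18.2), Hnrnpl (12.4) and Hnrnpd (3.08). Among control cells in high glucose, Hnrnpa2b1 was at 166 ± 40.8 TPM and Hnrnpu at 57.4 ± 22.2, while in low glucose they were at 162 ± 46.3 and 115 ± 26.6, whose SD ranges met. In Pcbp2βKO cells in low glucose they were at 158 ± 14.7 and 147 ± 37.3, and Hnrnpu exceeded Hnrnpa2b1 in replicates 2 (173 against 157) and 4 (165 against 153), whereas in high glucose they were at 181 ± 14.1 and 54.8 ± 10.3. From Hnrnpab to Hnrnpa1, neighbours in this order met within 1 SD of their group means, except Hnrnpm and Hnrnpdl in control cells in high glucose and Hnrnpa3 and Hnrnpa1 in control cells in low glucose. Hnrnpd lay below every other member. Hnrnpa3, an A/B-type hnRNP linked to mRNA transport, was not called on the CPM scale (70.8 ± 4.07, 72.9 ± 18.4, 68.1 ± 12.5 and 74.7 ± 7.64), with a log2 change of 0.04 (edgeR, adjusted p = 0.907) in control cells and 0.13 (edgeR, adjusted p = 0.562) in Pcbp2βKO cells. Hnrnpd changed by -0.14 (edgeR, adjusted p = 0.777) and 0.09 (edgeR, adjusted p = 0.804), and Hnrnpu by -0.20 (edgeR, adjusted p = 0.447) and -0.26 (edgeR, adjusted p = 0.141).

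Hnrnpab, whose protein (CBF-A) binds RNA and single-stranded DNA, varied more within groups than between them. Its CPM was 29.5, 36.1 and 107 in control cells in low glucose and 17.9, 17.6, 108 and 131 in high glucose. In Pcbp2βKO cells it was 53.8, 57.9, 121, 122 and 41.7 in low glucose and 98.0, 115, 65.2, 112 and 63.1 in high glucose. Both glucose levels held low and high samples in each genotype, and the log2 change was 0.26 ± 0.62 (edgeR, adjusted p = 0.838) and 0.19 (edgeR, adjusted p = 0.823).

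**Figure D5:**
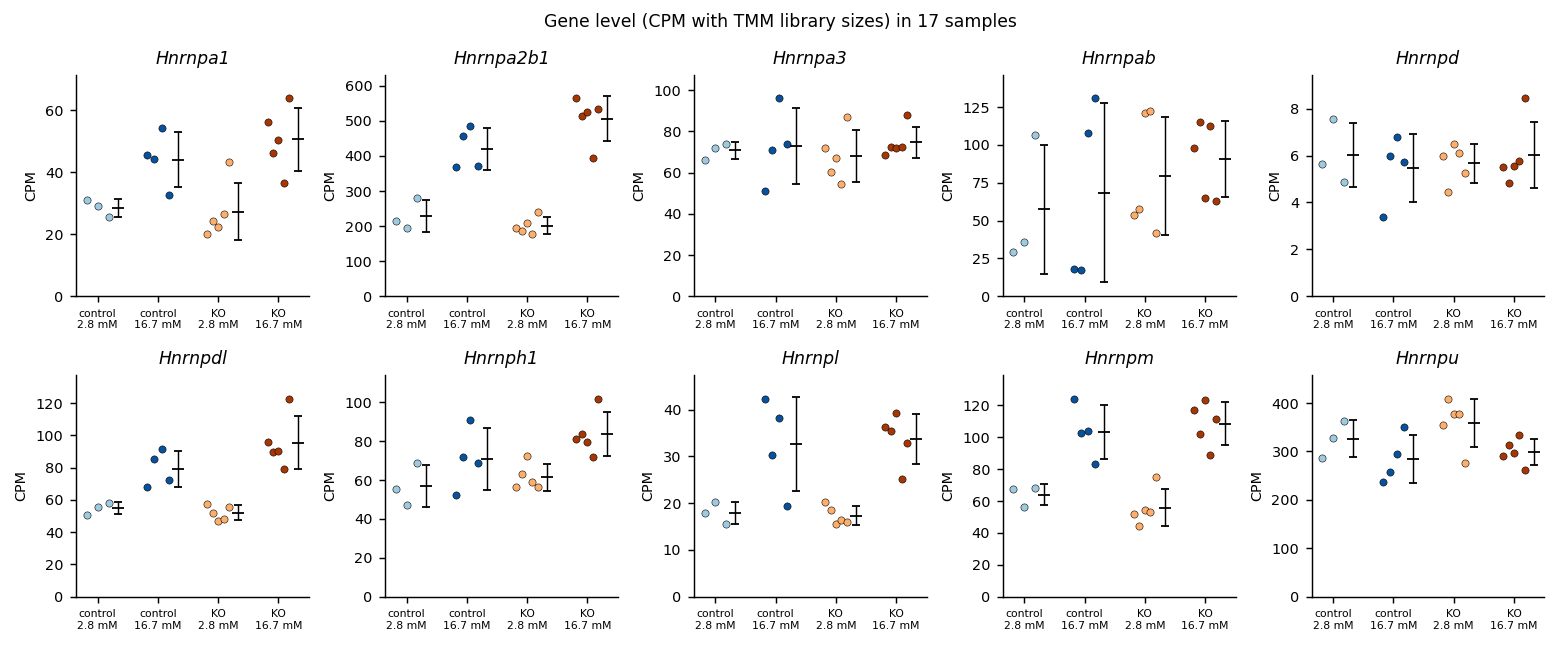
TMM-scaled CPM of the 10 hnRNP genes, 1 point per sample with group mean and SD. Hnrnpa2b1, Hnrnpdl and Hnrnpm separate low from high glucose in both genotypes, and Hnrnpab spreads from 17.6 to 131 CPM within control cells in high glucose.

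By edgeR on transcript counts, 8 of the 80 member transcripts were called in control cells (7 higher, 1 lower; 4.68% of the 65504 transcripts tested were called in either direction) and 19 of 80 in Pcbp2βKO cells (15 higher, 4 lower; 13.8%). The control count rested on few samples: it was 2 without low glucose control replicate 1 or 2, 4 without replicate 3, 5 without high glucose control replicate 1 and 3 without high glucose replicate 2 or 3. With total counts 7 were called in control cells (3 higher, 4 lower) and 22 in Pcbp2βKO cells (9 higher, 13 lower). The share of all transcripts called with total counts is not given here, so these counts are no result about the members. On that scale the median log2 change of all genes was -0.35 and -0.47. Beside the Hnrnpa1 pair, the control calls were 4 transcripts of Hnrnpa2b1 and 2 of Hnrnpm (Hnrnpm-201 and Hnrnpm-202). In Pcbp2βKO cells the transcripts that fell were Hnrnpa1-203, Hnrnpdl-205 (-1.24), Hnrnpa3-206 (-1.42) and Hnrnpm-213 (-2.34, edgeR, adjusted p = 0.0347). Leaving out single Pcbp2βKO samples ended some of these calls: Hnrnpdl-205, an NMD transcript, was lost without low glucose replicate 2, 3 or 4 or high glucose replicate 2, 4 or 5. Without the 3 samples between the clusters Hnrnpdl-205 was lost as well (-1.02, edgeR, adjusted p = 0.116). So was Hnrnph1-218, which had been called higher (1.16 with all samples and 1.19 without the 3, edgeR, adjusted p = 0.0412 and 0.0771). Hnrnpa3-206, a coding transcript, was lost without low glucose replicate 3 or 5 or high glucose replicate 1, 2, 3 or 5. Hnrnpm-213 was lost without low glucose replicate 2 or 3 or high glucose replicate 1 or 3.

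Each transcript was also set against the other transcripts of its own gene, a comparison added after the data were seen. With limma, 6 of 56 member transcripts changed in usage in control cells (2 up, 4 down; 5.53% of 22927 transcripts tested changed) and 15 of 56 in Pcbp2βKO cells (5 up, 10 down; 18.0%). The control count was 2 without low glucose control replicate 2, those of Hnrnpa1. In Pcbp2βKO cells the largest gain was that of the coding transcript Hnrnpa3-202 (3.54, limma, adjusted p = 0.0398), which was not called without the 3 samples between the clusters (limma, adjusted p = 0.0582) or without Pcbp2βKO replicate 3 or 5 in low glucose or 1, 2, 3 or 4 in high glucose. Its log2 change ranged from 2.77 to 4.24 when single samples were left out. The next were Hnrnpa2b1-203 (2.15) and Hnrnpa1-202 (1.81), and the largest losses were those of Hnrnpm-213 (-2.83), Hnrnpa1-203 (-2.46), Hnrnpdl-205 (-1.90) and Hnrnpa2b1-202 (-1.67). Hnrnpa2b1-202, a coding transcript, went from 28.9% ± 2.43 to 11.4% ± 1.93 of its gene in Pcbp2βKO cells and from 26.1% ± 5.40 to 13.1% ± 3.13 in control cells. Without the 3 samples between the clusters the control usage call of Hnrnpa2b1-204 was lost (limma, adjusted p = 0.0545). In Pcbp2βKO cells those of Hnrnpdl-202, Hnrnpdl-204 and Hnrnpa2b1-208 were lost too (limma, adjusted p = 0.0936, 0.0919 and 0.0936).

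In 3 pairs the coding transcripts differ in 1 coding exon, and the share of the longer form was compared within each pair. This comparison too was added after the data were seen. Its exact tests are among the 48 counted above, and their p were not adjusted. The usage gain of Hnrnpa2b1-203 given above comes from the same samples. hnRNP B1 carries an exon of 36 nt near the N-terminus that hnRNP A2 lacks, and the transcripts Hnrnpa2b1-203 and Hnrnpa2b1-204 differ in this exon (chr6:51444371-51444406, capitals, with 12 nt of intron on either side).
Hnrnpa2b1-203 exon, chr6:51444359-51444418: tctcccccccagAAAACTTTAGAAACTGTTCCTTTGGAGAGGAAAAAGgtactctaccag

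Hnrnpa2b1-203 made up 14.5%, 18.7% and 18.1% of the pair in control cells in low glucose and 27.5%, 21.5%, 21.8% and 15.7% in high glucose. In Pcbp2βKO cells it made up 13.3%, 7.75%, 17.7%, 11.9% and 17.1% against 24.3%, 23.8%, 25.8%, 21.0% and 30.5%. Low and high glucose did not overlap in Pcbp2βKO cells (difference 11.6 percentage points, exact permutation test, p = 0.00794) and overlapped in control cells through high glucose replicate 4 (4.51 points, exact permutation test, p = 0.229). That test ignores the replicate number: control replicates 1, 2 and 3 were each higher in high than in low glucose, and replicate 4 has no partner of its number, so that 3 pairs remain, too few for an exact paired test to pass 0.05. Hnrnpa1-201, which adds a coding exon of 159 nt (chr15:103151349-103151507) to Hnrnpa1-202 and encodes the longer A1-B form, took 12%, 16.7%, 14.7% and 15.5% of its pair in control low, control high, Pcbp2βKO low and Pcbp2βKO high. Exact permutation tests for glucose gave p = 0.2 in control cells and 0.841 in Pcbp2βKO cells. Hnrnpab-203, which includes an exon of 141 nt (chr11:51492577-51492717) that Hnrnpab-201 skips, took 45.8%, 41.4%, 46.5% and 47.1%, and its only p under 0.05 among 4 contrasts was between genotypes in high glucose (5.65 points, exact permutation test, p = 0.0476, not adjusted).

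Deletion of Pcbp2 left the hnRNP members without a call. By edgeR 0 of 10 genes passed in high glucose (1.71% of all genes passed in either direction), 0 of 10 in low glucose (2.05%) and 0 of 10 for the difference between the glucose responses (0.0044%). At an unadjusted p under 0.05 the counts were 0, 0 and 1, and the smallest adjusted p were 0.431, 0.686 and 1.00. The 1 gene was Hnrnpa2b1, with a difference of 0.45 ± 0.21 between the log2 responses. The non-coding share was called in 0 of 7 members in high glucose (limma; 0.106% of all genes), in 0 of 7 in low glucose (0.0424%) and in 0 of 7 for the difference (0.0%), with 0, 0 and 0 members at an unadjusted p under 0.05. Of the 80 transcripts 0 were called in high glucose (edgeR; 0.392% of all) and 0 in low glucose (0.504%), with 3 in each at an unadjusted p under 0.05. For Hnrnpa1 the mean NMD share differed between genotypes by 0.66 percentage points in high glucose and 0.0516 in low glucose. The log2 differences of the 10 genes between Pcbp2βKO and control cells ran from 0.03 (Hnrnpa3) to 0.40 (Hnrnpab) in high glucose, and from -0.20 (Hnrnpm) to 0.47 (Hnrnpab) in low glucose, with SE of 0.13 to 0.60.

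The genes whose log2 CPM across the 17 samples lay nearest to each member (Euclidean distance between z-scores, among 10000 other genes with a mean of at least 5 CPM, whose median distances were 5.58 to 6.23) were as follows. Srsf3, which encodes a serine/arginine-rich splicing factor, was nearest to Hnrnpa2b1 (0.771), and Srrt, which encodes the nuclear RNA factor ARS2, to Hnrnpm (0.769). The nearest to Hnrnpab was Josd1 (0.759), to Hnrnpl Tmem14c (1.26), to Hnrnpdl Agbl3 (1.33), to Hnrnpa1 Fam53b (1.34), to Hnrnpu Pias2 (1.47), to Hnrnph1 Dnajb4 (1.96), to Hnrnpa3 Uba6 (2.65) and to Hnrnpd Afdn (2.68).

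Other genes of RNA processing were counted for comparison. Of all genes tested, 6.7% fell in control cells and 10.5% in Pcbp2βKO cells (edgeR), beside the 7.16% and 13.5% that rose. Of 19 further family members, 1 rose in control cells (Hnrnph2, 0.64) and 1 fell (Hnrnpc, -0.84), while in Pcbp2βKO cells 4 fell, namely Hnrnpc (-1.20), Raly (-0.82), Hnrnpf (-0.80) and Hnrnph3 (-0.60), and none rose (edgeR). Their median log2 change was -0.05 and -0.19, beside 0.43 and 0.66 for the 10 members and 0.04 and 0.01 for all genes. With total counts the medians were -0.44 and -0.67, and on the TPM scale -0.77 and -1.15. Of 11 genes for proteins that bind together with hnRNPs, Sfpq (1.07 and 1.33) and Ewsr1 (0.70 and 0.94), which encode a paraspeckle protein and an RNA-binding protein of the FET family, rose in both genotypes, and Matr3 (-0.73 and -0.80), which encodes the nuclear matrix protein matrin 3, fell. Of 10 NMD factors only Upf3b, which encodes the exon junction partner of the NMD complex, was called, higher by 0.62 in control cells and 1.04 in Pcbp2βKO cells, and the median of the list was -0.18 and -0.19. Set against the shares of all genes, 1 of 10 called is no result about the list. Of 4 genes for nuclear import receptors and arginine methyltransferases that act on hnRNPs, Prmt1 fell in control cells (-0.62) and none was called in Pcbp2βKO cells. None of these 4 lists had a call between genotypes in either glucose.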

How the data were processed

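RNA of sorted tdTomato+ β cells was converted with an ultra-low-input polyA kit and quantified by the authors with Kallisto against GRCm39; the deposited tables give, per transcript, an estimated count and TPM for 1 sample each. The study fitted edgeR with a batch factor whose levels are not given in the sources used here, so no batch term was used. Strand settings were not given.

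Estimated counts were summed per gene symbol, rounded and fitted with edgeR 4.0.16 (R 4.3.3; filterByExpr, TMM, quasi-likelihood test) over all 17 samples with the 4 groups as means. Calls required a Benjamini-Hochberg adjusted p under 0.05 over all genes (22733) or transcripts (65504) and a fold over 1.5. CPM are TMM-scaled. Shares were fitted with limma 3.58.1 on log2 ratios of TPM with a pseudocount of 0.1, over genes with a mean TPM of at least 5 and at least 0.5 in each class. Single shares were compared with exact permutation tests, two-sided. Kallisto's uncertainty in dividing reads between transcripts with common exons was not modelled. Every member has exons that overlap exons of another gene. Some lie on the opposite strand (such as Enoph1 with Hnrnpdl, Cbx3 with Hnrnpa2b1, Gm62980 with Hnrnpa1 and Cox20 with Hnrnpu). Others lie on the same strand (Marchf2 with Hnrnpm and Gm24574 with Hnrnpa3). Reads within these overlaps cannot be told apart. The 2 Hnrnpa1 processed pseudogenes averaged 0.0496 and 0.000751 TPM. Of the 101 transcripts, 100 were found in the GENCODE annotation used for exon positions, 74 at the same length.

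The genes named were the 10 members, their called transcripts and the called genes of the lists; members and lists were chosen with earlier results of these data known. Same-numbered control samples in low and high glucose deviated together (r = 0.198, 0.124 and 0.259 across genes), so the replicate number was taken to pair them. The main fits and the exact tests did not use this pairing, which entered only through the replicate block. In each other comparison at least 1 pair had r of 0.1 or less, the limit set here. In high glucose, control replicate 4 deviated together with Pcbp2βKO replicates 4 and 5 (r = 0.355 and 0.186), the 3 libraries between the clusters. Its r with Pcbp2βKO replicates 1, 2 and 3 was -0.169, -0.17 and -0.263. Between low and high glucose in Pcbp2βKO cells, r of the same-numbered pairs was positive throughout (0.0667, 0.171, 0.105, 0.0745 and 0.193). Alternatives were total counts, DESeq2 1.42.0, other filters and pseudocounts, coding transcripts alone, the TPM scale, leaving out samples, and the replicate block. The scripts were tested on simulated data.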

Additional observations from a re-analysis of the deposited data

Results flagged for a closer look

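In 57 groups of 4 or 5 samples the extreme sample was compared with the rest by Dixon's ratio, which chance exceeds in about 1 of 20 groups, and 2 stood out, both Pcbp2βKO replicate 5 in high glucose. Hnrnpa3 was at 88.1 CPM there, where the other 4 samples ranged from 68.7 to 72.6. Hnrnpd was at 8.44 CPM, where the others ranged from 4.82 to 5.76. This library is also 1 of the 3 that lay between the low and high glucose clusters.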

How the results depend on the processing

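Scaling moved the gene results most. The members called in control and Pcbp2βKO cells for glucose numbered 3 and 5 with TMM, 0 and 2 with total counts, and 3 and 4, all lower, on the TPM scale. Protein-coding transcripts alone gave 5 in control cells. Leaving out single samples gave 2 to 5 and 5 to 5 for genes, 2 to 3 and 4 to 5 for shares, 2 to 10 and 15 to 21 for transcripts, and 2 to 8 and 11 to 18 for usage. Transcripts called with total counts were 7 and 22, mostly lower. A pseudocount of 1 TPM gave 7 shares in Pcbp2βKO cells. The shares of all genes and transcripts called under these alternatives are not given here, so these counts are no result about the members. On the TPM scale the log2 change reversed in control cells for Hnrnpa3 (-0.60), Hnrnpl (-0.092) and Hnrnpm (-0.29), and in Pcbp2βKO cells for Hnrnpa1 (-0.29), Hnrnpa3 (-0.74), Hnrnpd (-1.04), Hnrnpdl (-0.30), Hnrnph1 (-0.68), Hnrnpl (-0.10) and Hnrnpm (-0.26). The sign also turned, with no call on either scale, in control cells for Hnrnpa1 (-0.38), Hnrnpdl (-0.41), Hnrnph1 (-0.55) and Hnrnpab (-0.89), and in Pcbp2βKO cells for Hnrnpab (-0.73). The Hnrnpa2b1 share change in Pcbp2βKO cells reversed with NMD transcripts alone (0.083). The Hnrnpa3 share in Pcbp2βKO cells, higher in high glucose by 0.673 percentage points, lay between 0.480 and 0.867 when single samples were left out, and passed the exact permutation test without high glucose replicate 5 (0.867 points, p = 0.0159) and without the 3 samples between the clusters (0.958 points, p = 0.0357). With the replicate block, the control log2 change of Hnrnpa1 was 0.75 and passed the test, and no other control call of a gene or share named here changed; transcripts called were 10 and 19. In Pcbp2βKO cells, same-numbered samples deviated together with positive r, though not every pair passed the limit of 0.1. There the block ended the calls of Hnrnpa3-206 (edgeR, adjusted p = 0.0509) and Hnrnpm-213 (edgeR, adjusted p = 0.0527). It also ended the usage call of Hnrnpdl-204 (limma, adjusted p = 0.0795). The cause of these shifts was not tested. How far depth limits each member was not tested.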
